A study of Homo sapiens with 38 samples.

Results

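The neddylation genes described here were NEDD8, NAE1, UBA3, UBE2M, UBE2F, RBX1, RNF7, DCUN1D1, CAND1 and SENP8. They were taken by gene name from the guide counts of CRISPR screens in 2 hepatocellular carcinoma (HCC) cell lines, Hep3B and SNU-398, and from RNA-seq of Hep3B cells lacking PSTK. These 10 genes had 35 of the 66758 targeting guides in the table of Hep3B, which covered 18029 genes, and 32 of the 66447 targeting guides in that of SNU-398, which covered 18036 genes. All 10 were also among the 58735 genes of the RNA-seq table. The genes were selected on the NormZ scores of inhibitor against vehicle, which were already known from these screens, so those scores are given as a description and are not tested.

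NEDD8 is a small protein related to ubiquitin that is joined to cullins, the scaffolds of the largest family of ubiquitin ligases, and so switches these ligases on. NAE1 and UBA3 form the E1 enzyme that activates NEDD8, which is then passed to an E2 enzyme, UBE2M or UBE2F, and from there to a cullin with the help of a RING protein and a co-E3 protein. RBX1 is the RING protein of most cullins and works with UBE2M, while RNF7 (also called RBX2 or SAG) serves CUL5 and works with UBE2F.

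Both lines stably expressed Cas9 and carried TKOv3, a library of guides that each direct Cas9 to cut 1 human gene. Cells of each line were grown for 14 days with Sorafenib, Regorafenib or Lenvatinib (inhibitors of tyrosine kinases), Erastin (an inducer of ferroptosis), or Abemaciclib or Palbociclib (inhibitors of CDK4 and CDK6). The T1 group was taken as the cells grown with vehicle for the same time, because it was the group left over when the others had been matched to the methods, and T0 cells were harvested before treatment. Each group had 2 libraries, 32 in all. The RNA-seq compared 3 libraries of PSTK-KO Hep3B cells (genotype PSTK-/-) with 3 libraries of control Hep3B cells (genotype wild type). The PSTK-KO cells were made with Cas9 and a vector for a pair of guides. Whether they were 1 clone or a pool is not given in the sources used here.

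Screen libraries held 11198022 to 46376708 counts in Hep3B and 11558112 to 46043970 in SNU-398. Among all guides, 38.7% and 39.4% had no count in the T1 libraries of Hep3B, against 4.34% and 6.43% in T0. The shares in SNU-398 were 25.3% and 29.3% in T1, against 10.7% and 12.6% in T0. The libraries of a group differed by little more than counting noise (chi-square per guide of 2.49 to 3.68, where counts were mostly even numbers, without the Erastin pair of SNU-398). Nothing in the sources says that they came from separate cultures, so p-values of the screens measure the spread between libraries and not between cultures. Replicate 2 of Erastin in SNU-398 was more like Hep3B than the other SNU-398 libraries were (r = 0.577, against 0.00843 to 0.177). The tests of T1 against T0 left it out, and their counts are also given with it. Single Erastin scores named for SNU-398 are also given from the other replicate alone. Medians over screens, shares of guides below T0 and the likeness of genes to NAE1 include it and were not computed without it. The RNA-seq libraries held 15404153 to 16851558 counts. The 8 genes of a hepatocyte list summed to 0.779 to 1.30 CPM, counts scaled to the library total, in PSTK-KO libraries and 2.25 to 3.43 CPM in control libraries, with TTR at 0 in all 6, so defining liver genes were close to absent from cells labelled Hep3B. A list of 9 genes of blood, fibroblast and endothelium summed to 49.1 to 52.7 CPM in PSTK-KO and 67.8 to 74.6 CPM in control libraries, and its part in any result was not tested.

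The guides of a gene were very unequal in number. Of the 35 guides in Hep3B, 15 had a mean T0 count under 20 and 16 had at least 100, and in SNU-398 these were 12 and 14 of 32. Guide 2 of NEDD8 made up 96.4% of the T0 counts of its gene in Hep3B, and guide 3 of RNF7 made up 97.5%. Guide 2 of UBE2F made up 99.3%. UBE2M was spread more evenly, with its largest guide at 43.3%. SENP8 had 2 guides, of which 1 was nearly absent, so its values come from guide 2. Guides 3 and 4 of UBA3 share 16 of their bases and guides 2 and 3 of RNF7 share 14, so these pairs cut at almost the same place and are not independent. Guides 2 and 3 of NEDD8 share 1 base and lie next to each other. Guides are numbered here along the chromosome in both lines.

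**Figure D1:**
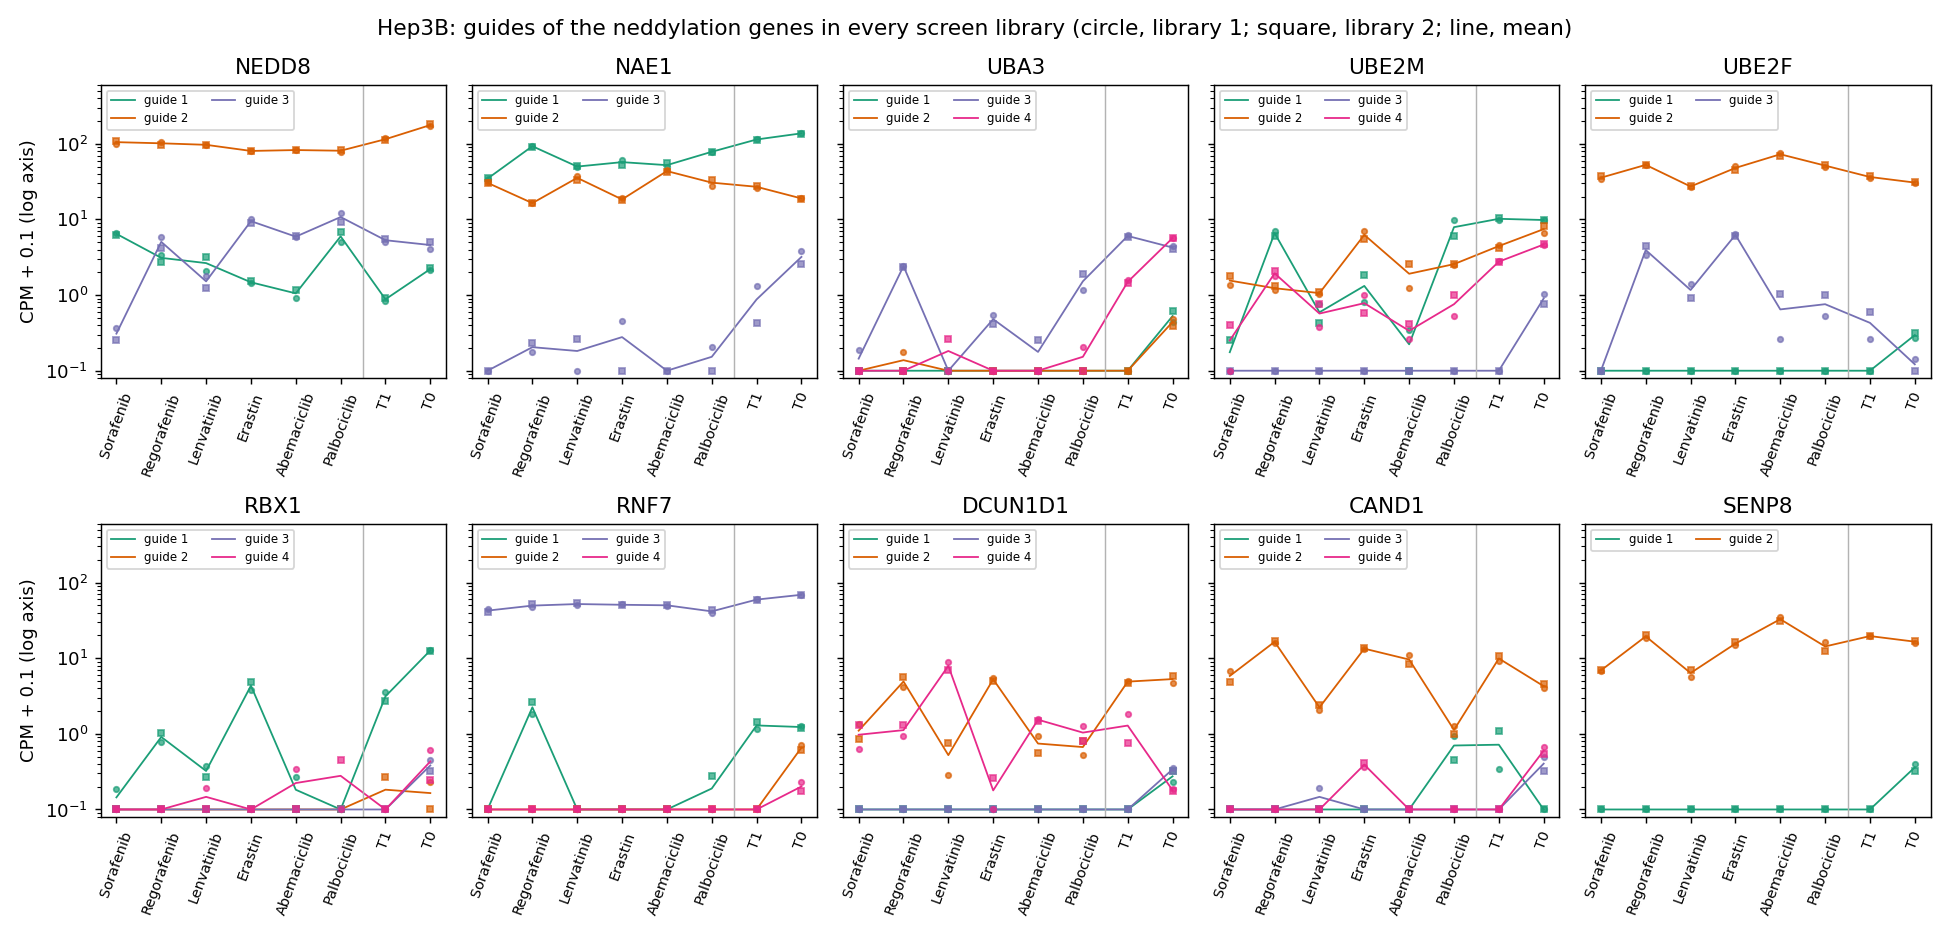
Abundance of each guide in the 16 Hep3B libraries, as CPM with 0.1 added on a log axis, with 1 panel for each gene and groups along the x axis. Guide 1 of NAE1 was at 34.2 and 34.9 CPM with Sorafenib and at 116 and 112 CPM in T1, and both guides of UBA3 that were detected in T1 lay lower with each inhibitor.

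Inhibitor and vehicle were compared by NormZ, a score computed by the steps of DrugZ. It divides the log2 ratio of each guide, inhibitor over T1, by the spread of guides with similar counts. These values are summed over guides and libraries of a gene and divided by the square root of their number. A score from a single library is therefore smaller in size for the same guide ratios. A NormZ below 0 means that guides of the gene were fewer with the inhibitor, which the study calls a resister. Of the 120 values of 10 genes in 12 screens, 95 lay below 0. Most genes also did so: between 64.4% and 72.9% of all genes were below 0 in the 6 Hep3B screens, and between 52.4% and 64.0% in those of SNU-398.

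NAE1, UBA3 and UBE2M were the members with NormZ below 0 in all 12 screens. Their medians were -2.52, -1.80 and -2.24. The share of all genes below 0 in all 12 screens was not computed. The 6 screens of a line were scored against the same T1 libraries, so their signs are not independent. RNF7 was below 0 in 11 of 12 screens with a median of -1.12, and NEDD8 in 10 of 12 with a median of -1.14. UBE2F and CAND1 were below 0 in 6 of 12 each, with medians of 0.01 and -0.0029. The order was not the same in each line. In SNU-398 the medians were -2.24 for NAE1, -1.90 for UBE2M, -1.89 for NEDD8, -1.80 for RNF7 and -1.11 for UBA3, and in Hep3B UBE2M (-2.81), NAE1 (-2.52) and UBA3 (-2.35) had the lowest medians of the 10 genes. Single scores moved with the processing, by up to 2.19 over guides with a mean T1 count of at least 30. They moved by up to 2.67 when replicate 2 of the inhibitor and of T1 was left out. That largest move was NAE1 with Regorafenib in SNU-398, at -7.80 from both libraries and at -5.13 and -5.90 from each alone. Most of that move comes from the smaller number of observations and is not a disagreement of the libraries.

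**Figure D2:**
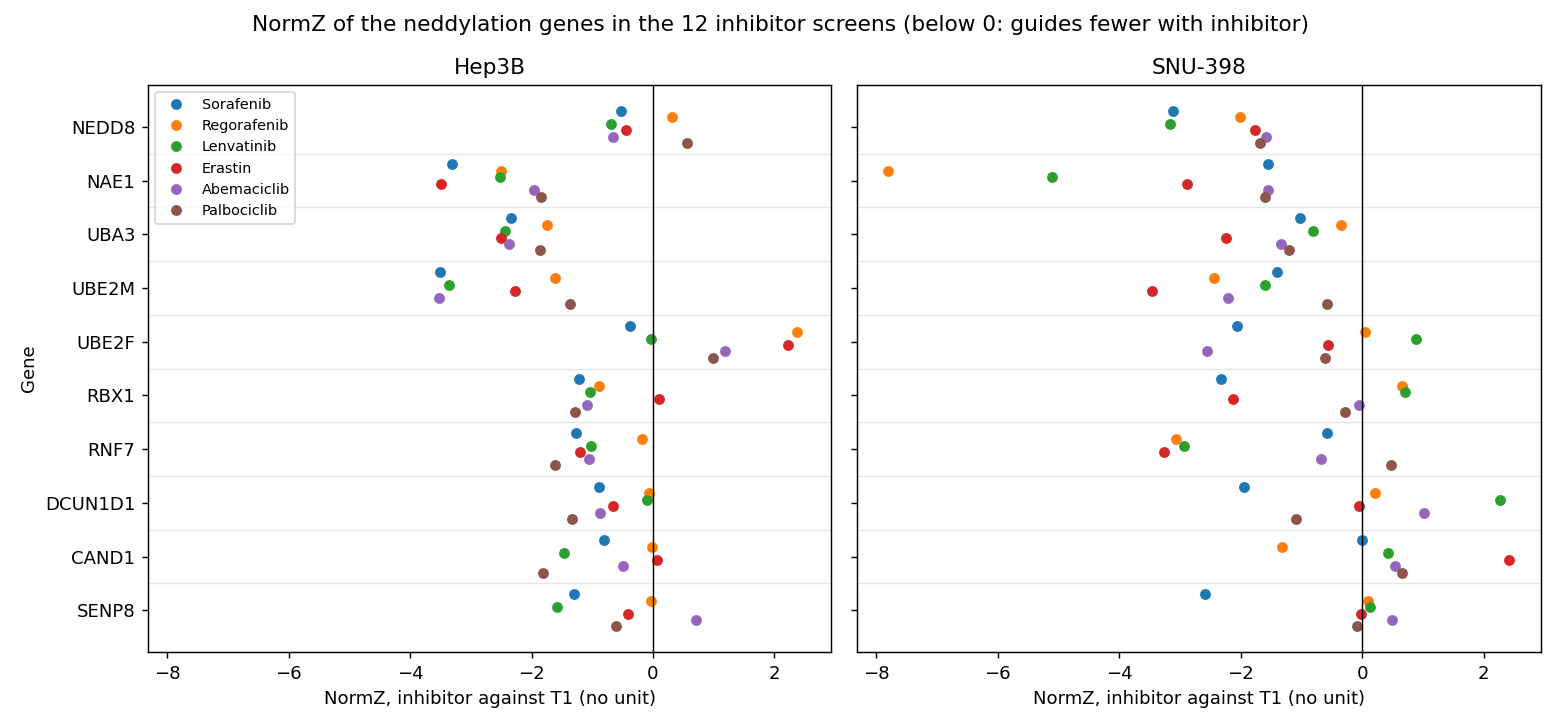
NormZ (no unit, x axis) of the 10 genes in the inhibitor screens, with 1 point for each inhibitor and a panel for each line. All points of NAE1, UBA3 and UBE2M lie below 0, and the lowest is NAE1 with Regorafenib in SNU-398 at -7.80.

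NEDD8, the modifier itself, differed between the lines in this description. In SNU-398 its NormZ lay between -3.17 (Lenvatinib) and -1.59 (Abemaciclib), and in Hep3B between -0.69 (Lenvatinib) and 0.56 (Palbociclib). Guide 2 had 55.3 and 66.9 CPM with Sorafenib in SNU-398, against 139 and 125 CPM in T1. It had 59.8 and 54.4 CPM with Lenvatinib. In Hep3B the same guide had 100 and 110 CPM with Sorafenib, and 78.4 and 83.3 CPM with Palbociclib, against 119 and 111 CPM in T1. Erastin (81.0 and 79.7 CPM) and Abemaciclib (83.7 and 81.4 CPM) were as low as Palbociclib there, while in SNU-398 the guide had 117 and 118 CPM with Palbociclib. Guide 3 of NEDD8 did not follow guide 2 in Hep3B, with 6 and 2 counts with Sorafenib and 228 and 104 counts with Palbociclib, against 122 and 66 counts in T1.

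NAE1 is the regulatory subunit of the E1 enzyme. In SNU-398 with Regorafenib it had the lowest NormZ of all 18036 genes (-7.80), and with Lenvatinib it was number 11 from the bottom (-5.11). All 3 of its guides were lower with Regorafenib. Guide 1 had 82.1 and 73.3 CPM, against 114 and 113 CPM in T1. Guide 2 had 3.94 and 4.16 CPM, against 18.1 and 18.0 CPM in T1. Guide 3 had no counts, against 102 and 72 counts in T1, and with Lenvatinib it had 2 and 0 counts. Guide 3 was present with the other 4 inhibitors in SNU-398, with 138 and 120 counts with Sorafenib.

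In Hep3B, NAE1 was lowest with Erastin (NormZ -3.49, number 107 of 18029) and Sorafenib (-3.31, number 212). Its guide 1 had 34.2 and 34.9 CPM with Sorafenib, 61.4 and 52.9 CPM with Erastin and 48.7 and 55.5 CPM with Abemaciclib, against 116 and 112 CPM in T1. No inhibitor library overlapped the T1 libraries for this guide, but the share of all guides without overlap was not counted. Over all guides of Hep3B, chi-square per guide was 36.7 to 83.7 between inhibitor and T1 and 2.49 to 2.70 within groups. The lack of overlap is therefore not read as particular to NAE1. Guide 2 went the other way with Abemaciclib, at 44.9 and 42.1 CPM against 26.1 and 27.8 CPM in T1, and with Lenvatinib, at 37.7 and 33.0 CPM. Guide 3 had at most 8 counts in any inhibitor library, against 30 and 4 counts in T1 and 172 and 68 counts in T0. In CPM it had 1.22 and 0.33 in T1 and 3.71 and 2.48 in T0, so it was already lower with vehicle.

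UBA3, the catalytic subunit of the E1 enzyme, had NormZ from -2.50 (Erastin) to -1.74 (Regorafenib) in Hep3B. Its guide 3 was at 2 and 0 counts with Sorafenib, at 0 and 0 with Lenvatinib, at 10 and 4 with Erastin and at 0 and 2 with Abemaciclib, against 150 and 70 counts in T1. More of it was left with Regorafenib (62 and 34 counts) and Palbociclib (20 and 20). Guide 4, which shares most of its site with guide 3, had at most 2 counts in every inhibitor library, against 36 and 16 in T1. The other guides of UBA3 had under 20 counts in T0. In SNU-398 the NormZ lay between -2.25 (Erastin) and -0.35 (Regorafenib). With Erastin replicate 1 alone the value was -1.91, and a score from 1 library also rests on fewer observations. Guide 4 had 2 and 0 counts with Sorafenib in SNU-398, against 28 and 14 in T1, while guide 3 had 88 and 100 counts, against 54 and 30 in T1.

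UBE2M, the E2 enzyme that serves RBX1, was lowest in Hep3B with Abemaciclib (NormZ -3.52, number 141), Sorafenib (-3.50, number 158) and Lenvatinib (-3.35, number 173). Guide 1 had 6 and 0 counts with Abemaciclib, 0 and 2 with Sorafenib, 14 and 4 with Lenvatinib and 16 and 22 with Erastin, against 242 and 125 counts in T1. With Regorafenib (184 and 90 counts) and Palbociclib (184 and 66) it remained closer to T1. Guide 4 had 4 and 4 counts with Abemaciclib and 0 and 4 with Sorafenib, against 66 and 32 in T1. Guide 2 had 28 and 32 counts with Abemaciclib and 28 and 22 with Sorafenib, against 112 and 50 in T1, and guide 3 had no counts in any library after T0. The 3 guides still present in T1 were therefore all lower with Abemaciclib, Sorafenib and Lenvatinib.

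In SNU-398, UBE2M was lowest with Erastin (NormZ -3.46, number 56), and at -3.14 from replicate 1 alone. Guide 4 had 56 counts in replicate 1 of Erastin and 26 in replicate 2, against 156 and 72 in T1. Guide 1 had 14 counts in replicate 1 and 60 in replicate 2 of Erastin, against 98 and 46 in T1, so these libraries did not agree. With Regorafenib guide 4 had 30 and 26 counts and with Lenvatinib 24 and 18. With Palbociclib it had 210 and 128 counts, above T1 in CPM as well (9.55 and 8.74 CPM, against 7.10 and 6.23 CPM).

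UBE2F, the E2 enzyme that serves RNF7, had higher scores than UBE2M in all 6 screens of Hep3B and in 3 of the 6 of SNU-398. Its NormZ in Hep3B was 2.37 with Regorafenib and 2.22 with Erastin, and the lowest Hep3B value was -0.38. Guide 2 had 76.1 and 69.1 CPM with Abemaciclib and 52.2 and 52.9 CPM with Regorafenib, against 35.3 and 37.4 CPM in T1. Guide 3 had 142 and 76 counts with Erastin and 86 and 66 with Regorafenib, against 4 and 6 in T1 and 2 and 0 in T0, so part of these scores came from a guide near the limit of detection. In SNU-398 the lowest value was -2.56 with Abemaciclib, where guide 2 had 31.2 and 32.3 CPM, against 43.9 and 45.8 CPM in T1.

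Of the RING proteins, RBX1 had 1 guide with at least 100 counts in T0. Guide 1 of RBX1 had 0 and 0 counts with Palbociclib in Hep3B, 2 and 0 with Sorafenib, 4 and 0 with Abemaciclib and 6 and 2 with Lenvatinib, against 84 and 32 in T1. With Erastin it had 84 and 60 counts. In SNU-398 it was low with Sorafenib (28 and 28 counts) and Erastin (50 and 40), against 218 and 82 in T1. The NormZ of RBX1 reached -2.32 with Sorafenib in SNU-398 and was never below -1.29 in Hep3B.

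RNF7 was lowest in SNU-398 with Erastin (NormZ -3.26, number 88), Regorafenib (-3.06, number 216) and Lenvatinib (-2.93, number 318). With Erastin replicate 1 alone the value was -2.39. Guide 3, with nearly all counts, had 51.5 and 50.6 CPM with Regorafenib, against 68.7 and 63.9 CPM in T1. Guide 1 had 0 and 2 counts with Regorafenib and none with Lenvatinib, against 44 and 22 in T1. In Hep3B guide 3 had its lowest level with Palbociclib, at 39.9 and 43.0 CPM, against 59.9 and 58.9 CPM in T1.

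The remaining factors gave values on both sides of 0. DCUN1D1, a co-E3 protein that brings the loaded E2 enzyme to the cullin, had NormZ of 2.27 with Lenvatinib and -1.95 with Sorafenib in SNU-398. Its guide 2 had 14 and 26 counts with Sorafenib, against 83 and 78 in T1. With Lenvatinib guide 1 of DCUN1D1 had 28 and 24 counts, against none in T1. Guide 4 had 54 and 46 counts with Lenvatinib, against 16 and 5 in T1, so part of the 2.27 came from guides near the limit of detection. CAND1, which binds cullins that carry no NEDD8 and exchanges their substrate receptors, ranged from -1.81 (Palbociclib, Hep3B) to 2.43 (Erastin, SNU-398). That Erastin value was 2.21 from replicate 1 alone. It includes guide 3 of CAND1, with 94 and 20 counts with Erastin, against none in T1. SENP8, the protease that matures NEDD8 and removes it from proteins other than cullins, was lowest with Sorafenib in SNU-398 (-2.59), where guide 2 had 9.52 and 6.93 CPM, against 22.0 and 19.7 CPM in T1.

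**Figure D3:**
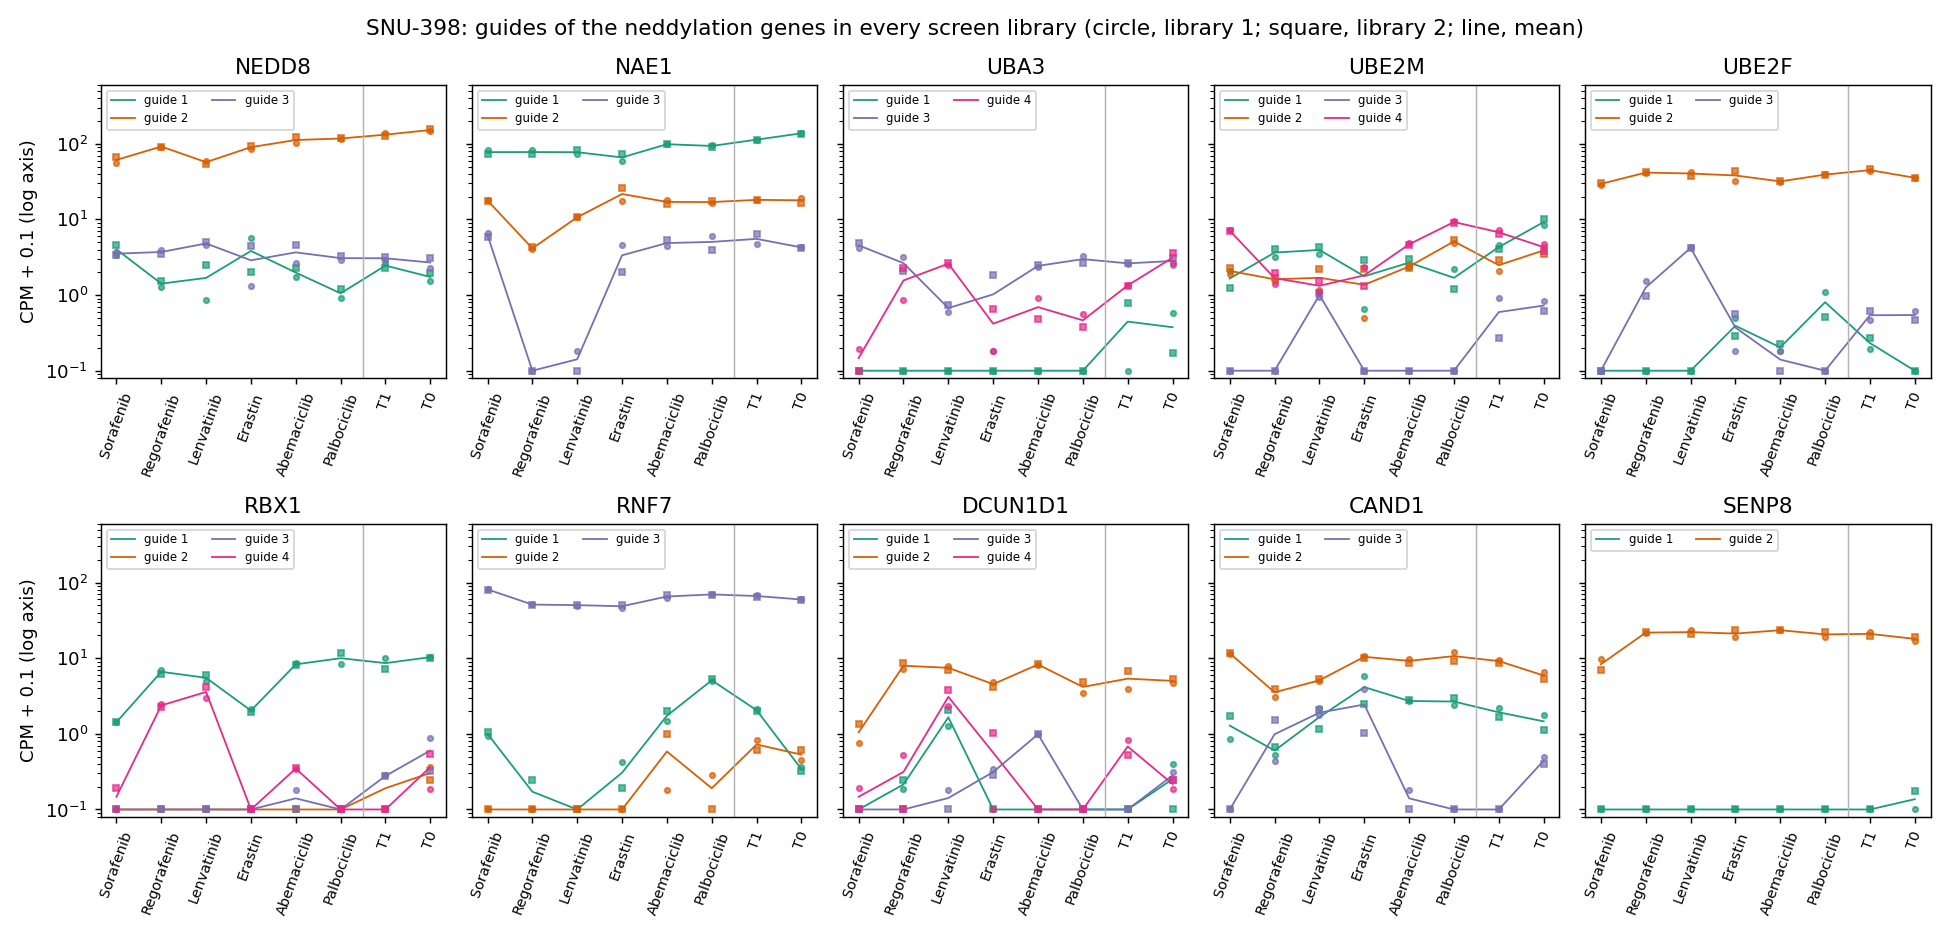
Abundance of each guide in the 16 SNU-398 libraries, as CPM with 0.1 added on a log axis, with 1 panel for each gene and groups along the x axis. Guide 3 of NAE1 had 0 counts in both Regorafenib libraries, and guide 2 of NEDD8 was at 55.3 and 66.9 CPM with Sorafenib, against 139 and 125 CPM in T1.

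Loss of the members was also described guide by guide against T0, over guides with a mean T0 count of at least 100 and with 1 CPM added. In Hep3B, 11 of 16 member guides were more than 1 log2 unit below T0 with Sorafenib, against 37.4% of all such guides in the library. With Lenvatinib it was 11 of 16 (32.5% of all guides), with Abemaciclib 10 of 16 (34.9%), with Palbociclib 9 of 16 (27.8%), with Erastin 8 of 16 (25.6%) and with Regorafenib 4 of 16 (23.6%). With vehicle it was 3 of 16 (11.2%). In SNU-398 it was 6 of 14 with Sorafenib (12.1% of all guides), 5 of 14 with Erastin (7.51%), 4 of 14 with Regorafenib (4.85%) and with Lenvatinib (8.12%), 2 of 14 with Palbociclib (9.15%) and with Abemaciclib (3.49%), and 0 of 14 with vehicle (2.64%). Control guides with no human target fell this far as well. In Hep3B it was 18.4% (Abemaciclib) to 24.5% (Lenvatinib and Erastin) of 49 control guides with an inhibitor, and 4.08% with vehicle. In SNU-398 it was 2.17% (Regorafenib) to 8.70% (Palbociclib) of 46 control guides, and 0% with vehicle. Falls of single guides named above are to be read beside these shares. The genes were selected on scores from these same inhibitor libraries, so nothing is read from these shares, and guides of 1 gene are not independent.

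The comparison of T1 with T0 asked which knockouts changed in number during 14 days with vehicle. It shares its T1 libraries with the scores that chose the genes. Counts were summed per gene and tested with edgeR across all genes. In Hep3B, 2 of the 10 genes were higher in T1 and 5 were lower (adjusted p under 0.05), beside 29.1% and 33.5% of the 17851 genes tested. In SNU-398, 3 were higher and 2 were lower, beside 19.2% and 20% of 17996 genes. A large part of the library passed the test, so the counts of members are read against those shares and nothing particular to these genes is drawn from them.

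RBX1 had the largest change of the 10 genes in Hep3B, but not in SNU-398. Its guides summed to 3.42 and 2.81 CPM in T1 and 13.7 and 12.8 CPM in T0 of Hep3B (log2 fold change -2.05 ± 0.28 SE, edgeR adjusted p = 5.07e-12). In SNU-398 they summed to 10.3 and 7.27 CPM in T1 and 11.6 and 10.8 CPM in T0 (-0.31 ± 0.18, edgeR adjusted p = 0.175). Without its largest guide RBX1 was lower in T1 of SNU-398 as well (-1.73 ± 0.67, edgeR adjusted p = 0.0312), over guides with few counts. In Hep3B RBX1 was not tested without that guide, so the contrast of the lines rests on it. NEDD8 had 125 and 117 CPM in T1 and 179 and 187 CPM in T0 of Hep3B (-0.58 ± 0.05, edgeR adjusted p = 6.38e-31), and 144 and 131 CPM in T1 and 150 and 162 CPM in T0 of SNU-398 (-0.17 ± 0.06, edgeR adjusted p = 0.0287), and was called lower in both. Without its largest guide the call was lost in Hep3B (-0.11, edgeR adjusted p = 0.66) and the sign turned in SNU-398 (0.35, edgeR adjusted p = 0.242). The call in SNU-398 was also lost with DESeq2 (adjusted p = 0.218), without T0 replicate 2 (edgeR adjusted p = 0.287) and without T1 replicate 2 (edgeR adjusted p = 0.309).

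NAE1 was slightly lower in T1, by sums of 143 and 140 CPM in T1 and 162 and 157 CPM in T0 of Hep3B (-0.15 ± 0.05, edgeR adjusted p = 0.00366), and of 136 and 137 CPM in T1 and 164 and 155 CPM in T0 of SNU-398 (-0.21 ± 0.05, edgeR adjusted p = 0.00151). These sums follow guide 1. The call was lost without T0 replicate 1 in Hep3B (edgeR adjusted p = 0.0811) and in SNU-398 (edgeR adjusted p = 0.0604). Without guide 1 the sign turned in Hep3B (0.36 ± 0.10, edgeR adjusted p = 0.00153) and in SNU-398 (0.09 ± 0.12, edgeR adjusted p = 0.589). UBA3 had log2 fold changes of -0.50 ± 0.27 in Hep3B and -0.55 ± 0.25 in SNU-398 and was not called in either (edgeR adjusted p = 0.0911 and 0.0695). Without its largest guide the value was 0.30 ± 0.36 in Hep3B. With the T0 and T1 libraries alone in the fit, UBA3 was called lower in Hep3B (edgeR adjusted p = 0.00461) and in SNU-398 (edgeR adjusted p = 0.0293).

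UBE2M was lower in T1 of Hep3B (-0.38 ± 0.16, edgeR adjusted p = 0.0331), a call that was lost when any T0 or T1 library was left out. In SNU-398 its value was -0.35 ± 0.15 (edgeR adjusted p = 0.0522), and it was called lower there with the T0 and T1 libraries alone in the fit (edgeR adjusted p = 0.014). UBE2F was higher in T1 of both lines, at 35.4 and 37.9 CPM in T1 and 30.2 and 31.5 CPM in T0 of Hep3B (0.26 ± 0.08, edgeR adjusted p = 0.00389), and at 44.3 and 46.5 CPM in T1 and 35.9 and 35.8 CPM in T0 of SNU-398 (0.35 ± 0.08, edgeR adjusted p = 0.000617). Without its largest guide UBE2F was called in neither line, and without T0 replicate 1 it was not called in Hep3B (edgeR adjusted p = 0.0573). CAND1 was higher in T1 of both lines, by 1.07 ± 0.20 in Hep3B (edgeR adjusted p = 4.48e-07) and 0.54 ± 0.17 in SNU-398 (edgeR adjusted p = 0.00743). Without its largest guide, CAND1 had a value of -0.55 ± 0.76 in Hep3B (edgeR adjusted p = 0.548) and of 0.10 ± 0.36 in SNU-398 (edgeR adjusted p = 0.848). Its call in SNU-398 was also lost without T0 replicate 2 (edgeR adjusted p = 0.139) and without T1 replicate 1 (edgeR adjusted p = 0.142). RNF7 was lower in T1 of Hep3B (-0.21 ± 0.07, edgeR adjusted p = 0.00756) and higher in T1 of SNU-398 (0.21 ± 0.07, edgeR adjusted p = 0.00828). The call of RNF7 was lost in Hep3B without its largest guide (-0.58, edgeR adjusted p = 0.409) and in SNU-398 without T0 replicate 2 (edgeR adjusted p = 0.0721) or T1 replicate 1 (edgeR adjusted p = 0.196). DCUN1D1 (0.12 and 0.09) and SENP8 (0.24 and 0.25) were not called in Hep3B or SNU-398. Without its largest guide DCUN1D1 was called higher in Hep3B (1.41 ± 0.53, edgeR adjusted p = 0.016), over guides with few counts. SENP8 was called higher in Hep3B with the T0 and T1 libraries alone in the fit (0.26 ± 0.11, edgeR adjusted p = 0.0277).

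These counts of called genes depended on single guides and libraries. With the largest guide of each gene left out, 3 of 8 genes tested in Hep3B and 2 of 9 in SNU-398 were called. Without T0 replicate 1, 4 of 10 were called in Hep3B. In SNU-398, 2 were called without T0 replicate 2 and 3 without T1 replicate 1. With Erastin replicate 2 kept in the fit of SNU-398, edgeR called 0 of 10, with 4 at an unadjusted p under 0.05. DESeq2, without that library, called 6 of 10 in Hep3B and 4 of 10 in SNU-398. The counts also rose under 1 setting. With the T0 and T1 libraries alone in the fit, edgeR called 9 of 10 in Hep3B and 7 of 10 in SNU-398.

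**Figure D4:**
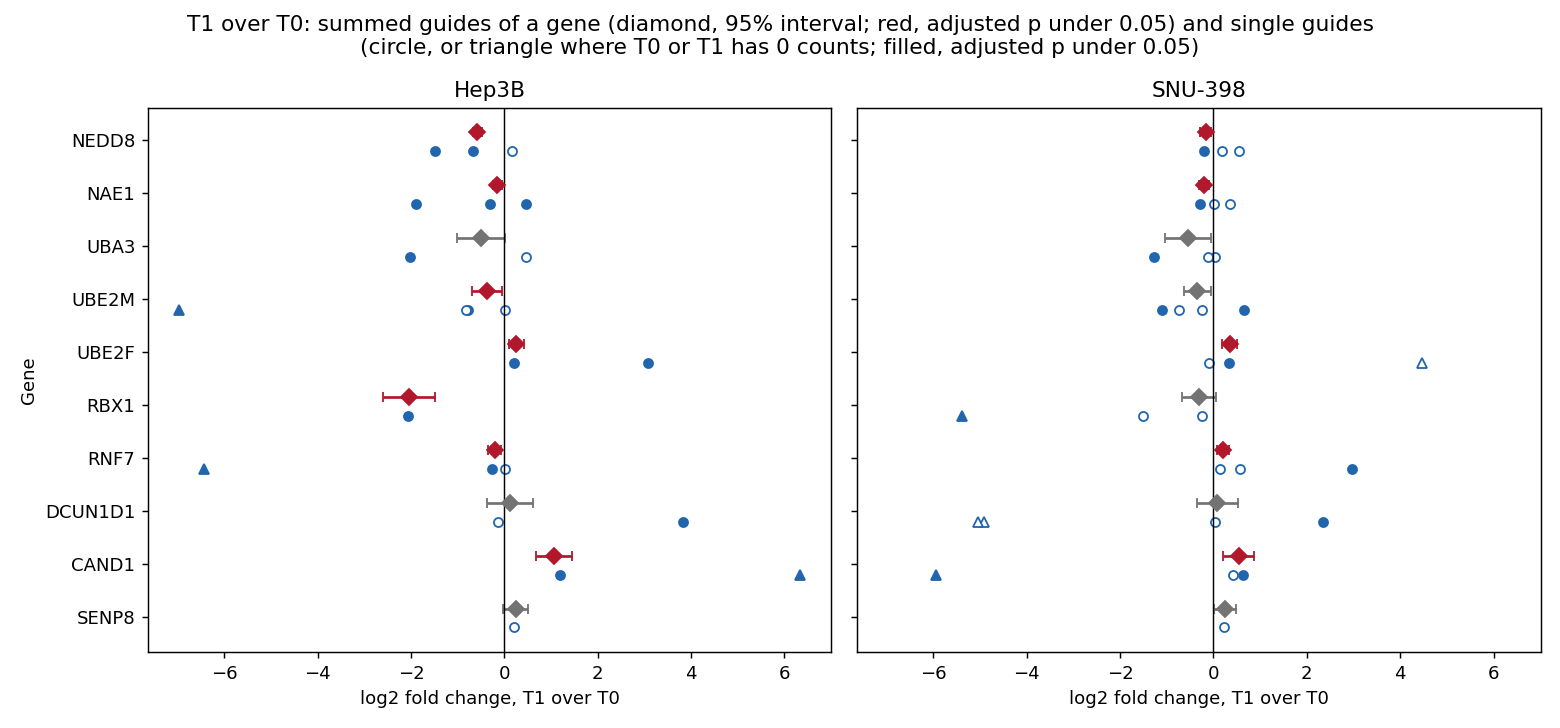
Log2 fold change of T1 over T0 (x axis) for the summed guides of each gene, with 95% intervals, and for each guide tested by itself, in Hep3B and SNU-398. RBX1 in Hep3B lies at -2.05; triangles mark guides with 0 counts in T0 or T1, whose position depends on the count added by the model.

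Tested one by one, 6 of the 23 member guides that passed the count filter were higher in T1 of Hep3B and 10 were lower, beside 26.3% and 36.8% of 43947 guides tested. Control guides with no human target passed as well, 35.7% higher and 19.0% lower of 84 in Hep3B. In SNU-398, 5 of 30 member guides were higher and 6 were lower, beside 15.3% and 22.0% of 56827 guides, and 26.7% and 23.3% of 116 control guides were higher and lower. Without T0 replicate 2 or without T1 replicate 1 of SNU-398, 5 of 30 member guides were called, and 1 of 28 was called with all 16 libraries. The filter kept out 12 member guides in Hep3B and 2 in SNU-398, all with a mean T0 count under 20. With no filter, 5 of 35 member guides were higher and 19 were lower in T1 of Hep3B. Guides of 1 gene were called in opposite directions for NAE1 in Hep3B and for UBE2M and CAND1 in SNU-398. In Hep3B guide 1 of NAE1 was lower in T1 (-0.31, edgeR adjusted p = 9.93e-06) while guide 2 was higher (0.46, edgeR adjusted p = 7.14e-05). In SNU-398 guide 1 of UBE2M was lower in T1 (-1.11, edgeR adjusted p = 0.00023) while guide 4 was higher (0.65, edgeR adjusted p = 0.0217). Guide 2 of CAND1 was higher in T1 of SNU-398 (0.63, edgeR adjusted p = 0.00509), and guide 3 was called lower, with 0 and 0 counts in T1 and 18 and 8 counts in T0.

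Whether T1 over T0 differed between Hep3B and SNU-398 was tested directly, as the interaction of line and time over guides present in both tables. Of the 10 genes, 4 differed, beside 58.8% of the 17959 genes tested. RBX1 was lower in Hep3B than in SNU-398 by a log2 difference of -1.73 ± 0.24 (SE, edgeR adjusted p = 1.69e-09), NEDD8 by -0.41 ± 0.06 (edgeR adjusted p = 1.89e-08) and RNF7 by -0.40 ± 0.08 (edgeR adjusted p = 2.01e-05). CAND1 was higher in Hep3B by 0.68 ± 0.24 (edgeR adjusted p = 0.0108), a call that was lost without Hep3B T0 replicate 1 (0.61), Hep3B T1 replicate 2 (0.54) or SNU-398 T0 replicate 1 (0.47). The difference was 0.06 for NAE1 with a 95% interval from -0.05 to 0.18, and -0.02 for UBE2M with an interval from -0.34 to 0.29.

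In the RNA-seq, no difference between PSTK-KO and control Hep3B cells was detected in any of the 10 genes. edgeR called 0 of 10, with 0 at an unadjusted p under 0.05, and DESeq2 called 0 of 10, beside 15.6% of the 15370 genes tested that were higher and 17.2% that were lower in PSTK-KO cells. The targeted gene itself, PSTK, had 63, 71 and 87 counts in PSTK-KO libraries and 76, 84 and 64 counts in control libraries. The size of the edit is not given in the sources used here, and an edit need not lower the mRNA, so this level does not check the labels. The paper checked the knockout by Western blot, which measures protein. Fewer cells of a type and less RNA per cell cannot be told apart in such bulk libraries.

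Levels are given as FPKM, which accounts for gene length. UBE2M was the most abundant of the 10 transcripts, with 70.2, 63.7 and 68.3 FPKM in PSTK-KO libraries and 66.9, 60.7 and 64.3 FPKM in control libraries (chromosome 19, 58555712 to 58558960 in the file, minus strand). Its log2 fold change was 0.07, with a 95% interval from -0.04 to 0.19. NAE1 (chromosome 16, 66802875 to 66873256, minus strand) had 19.4, 19.3 and 17.5 FPKM in PSTK-KO and 16.3, 19.2 and 20.3 FPKM in control libraries, with a log2 fold change of 0.01 and an interval from -0.13 to 0.15. UBA3 (chromosome 3, 69054730 to 69080408, minus strand) had 8.92, 8.73 and 8.38 FPKM in PSTK-KO and 7.53, 9.31 and 9.30 FPKM in control libraries, with -0.01 and an interval from -0.18 to 0.16. PSTK-KO and control libraries overlapped for all 3 of these genes. The positions are those of the deposited file, whose build is not given reliably, and all 10 overlap the same gene in RefSeq on GRCh38.p14.

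CAND1 averaged 15.7 ± 0.545 FPKM in PSTK-KO and 16.4 ± 1.02 FPKM in control libraries (SD, n = 3 each), and RNF7 had 16.5, 15.7 and 15.9 FPKM in PSTK-KO and 15.6, 15.6 and 17.3 FPKM in control libraries. RBX1 averaged 8.89 ± 0.274 FPKM in PSTK-KO and 8.78 ± 0.839 FPKM in control libraries, and DCUN1D1 7.55 ± 0.398 and 7.36 ± 0.821 FPKM. NEDD8 averaged 6.34 ± 0.165 FPKM in PSTK-KO and 6.55 ± 0.739 FPKM in control libraries. UBE2F was lower in level than UBE2M, at 3.08 ± 0.26 FPKM in PSTK-KO and 2.89 ± 0.271 FPKM in control libraries, and SENP8 was near the limit of detection with 19, 33 and 34 counts in PSTK-KO and 28, 19 and 34 counts in control libraries. The widest interval of the fold changes was that of SENP8, from -0.62 to 0.69 on the log2 scale, followed by UBE2F, from -0.16 to 0.33. Reads of UBE2M and UBE2F may be shared with their processed pseudogenes UBE2MP1 (24 to 46 counts) and UBE2FP1 (21 to 40 counts), and those of UBE2F with the readthrough gene UBE2F-SCLY (0 to 7 counts).

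**Figure D5:**
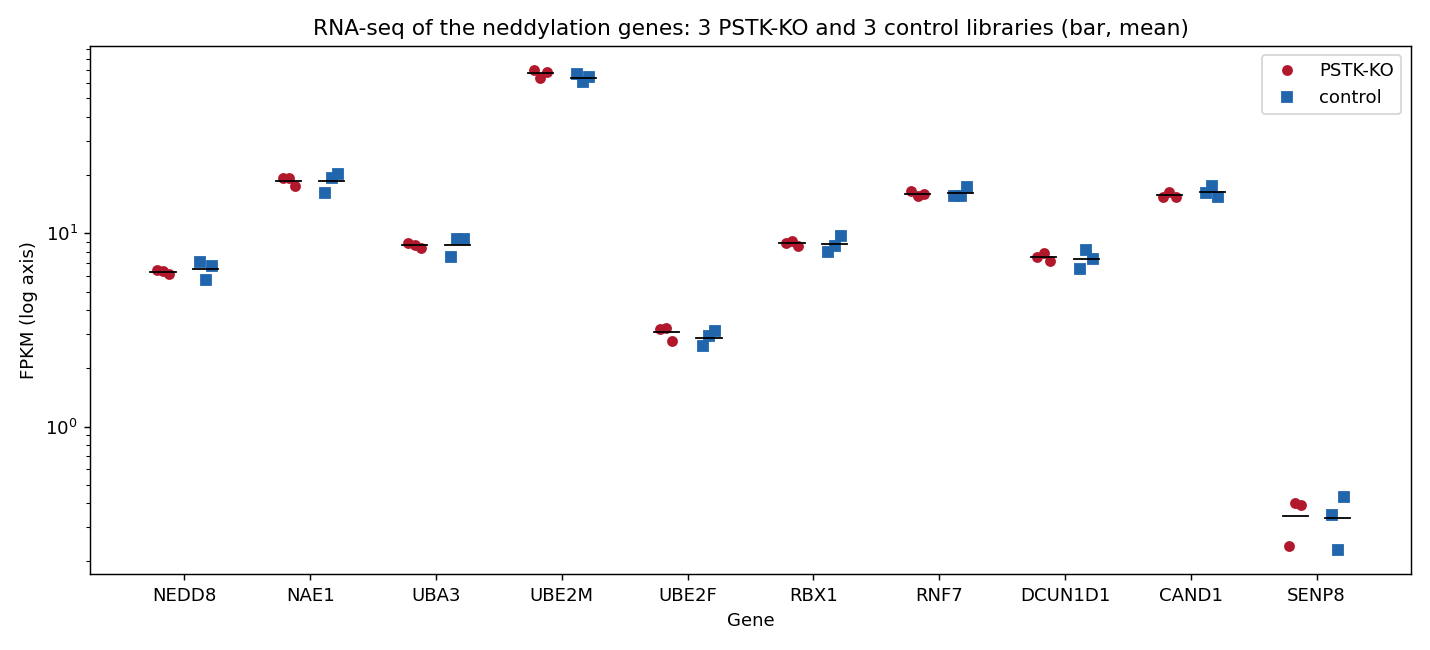
FPKM (log axis) of the 10 genes in 3 PSTK-KO and 3 control libraries, with bars at the means. The groups overlap for every gene, from UBE2M at 67.4 FPKM in PSTK-KO and 64.0 FPKM in control cells to SENP8 at 0.345 and 0.337 FPKM.

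Other genes of the pathway are given by list, and 32.8% of all genes tested were called in either direction, so the counts of each list are read against that share. Among 8 cullins, 0 were higher and 3 were lower in PSTK-KO cells, CUL7 (-0.54 ± 0.10, edgeR adjusted p = 7.76e-05), CUL9 (-0.29 ± 0.09, edgeR adjusted p = 0.0163) and CUL4B (-0.19 ± 0.05, edgeR adjusted p = 0.00624). The median of the cullins was -0.12, beside -4.77e-05 over all genes. Of the 10 subunits of the COP9 signalosome, which removes NEDD8 from cullins, COPS7B was higher (0.35 ± 0.08, edgeR adjusted p = 0.00132) and none was lower. Both E2 enzymes CDC34 (0.23) and UBE2G1 (0.22), which pass ubiquitin to substrates of cullin ligases, were higher among 3 tested. Of the 4 adaptors, DDB1, which links CUL4 to its receptors, was lower (-0.17 ± 0.04, edgeR adjusted p = 0.00308). Of the 9 substrate receptors, 3 were higher and 1 was lower. Those named are BTRC (0.61) and FBXW7 (0.46), which bring phosphorylated proteins to CUL1, and SKP2 (-0.22), which brings the cell cycle inhibitor p27. Of 8 further regulators, 2 were higher and 1 was lower, the lower being NUB1 (-0.35), which binds NEDD8 and lowers its amount.

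In T1 against T0 the same lists gave mixed directions, beside the shares of all genes of 29.1% higher and 33.5% lower in Hep3B and 19.2% higher and 20% lower in SNU-398. Of the 8 cullins, 2 were higher and 2 were lower in Hep3B, with CUL4B at -0.91 ± 0.10 (edgeR adjusted p = 1.34e-19) and CUL9 at 0.51 ± 0.07 (edgeR adjusted p = 6.63e-14), and none was called in SNU-398. All 3 E2 enzymes were lower in T1 of Hep3B, among them CDC34 at -1.72 ± 0.27 (edgeR adjusted p = 9.3e-10), and CDC34 alone was lower in SNU-398 (-0.60 ± 0.18, edgeR adjusted p = 0.00633). DDB1 was lower in T1 of both lines, at -0.41 ± 0.04 in Hep3B and -0.37 ± 0.05 in SNU-398 (edgeR adjusted p = 4.54e-27 and 7.86e-09). Of the 10 COP9 subunits, 3 were higher and 1 was lower in Hep3B, and 0 were higher and 4 were lower in SNU-398. The further regulators counted 2 higher and 4 lower of 9 in Hep3B, and 1 higher and 5 lower of 9 in SNU-398. The substrate receptors counted 4 higher and 1 lower of 9 in Hep3B, and 2 higher and 2 lower of 9 in SNU-398. Between lines, 5 of 8 cullins, 2 of 3 adaptors, 7 of 10 COP9 subunits, 6 of 9 regulators, 3 of 3 E2 enzymes and 6 of 9 receptors differed, beside 58.8% of all genes.

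Across the 12 screens, the genes whose NormZ was most like that of NAE1 were KCNJ1 (Pearson r = 0.926), ZNF189 (0.922), DNPH1 (0.917), TFAP2B (0.917) and HOXD1 (0.914), of 18024 genes ordered. Each of these 5 had its lowest value with Regorafenib in SNU-398, as NAE1 did, and all screens within a line used the same T1 libraries. The other neddylation genes stood lower in this order. RNF7 was number 387 (r = 0.703), NEDD8 number 3553, UBE2M number 5280 and UBA3, the partner of NAE1, number 14507 (r = -0.47).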

How the data were processed

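Guide counts came from CRISPR screens of Hep3B and SNU-398 (32 libraries) and gene counts from RNA-seq of PSTK-KO and control Hep3B cells (6 libraries). The deposited screen tables hold raw guide counts, for which the authors aligned reads with Bowtie2. The deposited RNA-seq values are raw counts from featureCounts 1.5.0-p3 after HISAT2 2.0.5, and FPKM computed by the authors. The labels name a mouse build for human genes, so no guide position is given. Members and gene lists were chosen with earlier results of these data known, and the genes named from each list were at most 3 per comparison with the smallest adjusted p.

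CPM was taken over all guides of a library. Genes (summed guides), guides and RNA-seq genes were tested with edgeR 4.0.16 (TMM, filterByExpr, quasi-likelihood test, Benjamini-Hochberg adjustment over all features, threshold 0.05) in R 4.3.3. Groups of a line shared 1 fit, and that of SNU-398 left out replicate 2 of Erastin. The 95% intervals are from the same fits. NormZ was computed in Python 3.11.15 after scaling to 1e+07 counts with a pseudocount of 5, with the spread taken over 1000 guides in steps of 25. The inhibitor screens got no test. DESeq2 1.42.0, limma 3.58.1 on log2 of FPKM with 1 added, other scalings, filters, left-out libraries and a replicate block were alternatives. The scripts were tested on simulated data. Intervals cover the spread between these libraries only.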

Additional observations from a re-analysis of the deposited data

Results flagged for a closer look

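The change of T1 over T0 differed between Hep3B and SNU-398 for 4 genes by the test of the difference itself (interaction of line and time, edgeR). The log2 difference, Hep3B minus SNU-398, was -1.73 for RBX1, -0.41 for NEDD8, -0.40 for RNF7 and 0.68 for CAND1. Since 58.8% of all genes also differed, and the libraries of a group may not be separate cultures, these 4 are values of these libraries. For each of the 4 genes most T0 counts were those of 1 guide (94.9% for RBX1, 96.4% for NEDD8, 97.5% for RNF7 and 83.8% for CAND1 in Hep3B), and the part of that guide in the difference was not tested.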

How the results depend on the processing

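Without the guide with most T0 counts, edgeR called 3 genes in Hep3B and 2 in SNU-398, and T1 over T0 turned sign for CAND1 (-0.55), NAE1 (0.36) and UBA3 (0.30) in Hep3B and for NAE1 (0.086), NEDD8 (0.35) and UBE2M (0.14) in SNU-398. With all 16 libraries of SNU-398, 0 genes and 1 guide were called. With the T0 and T1 libraries alone in the fit, 9 genes were called in Hep3B and 7 in SNU-398. Leaving out 1 replicate in turn gave 4 to 6 genes and 11 to 15 guides in Hep3B, 2 to 4 genes and 5 to 10 guides in SNU-398, 3 to 4 genes differing between lines and 0 to 0 in the RNA-seq. DCUN1D1 in Hep3B was at -0.073 over guides with a mean T0 count of at least 100, and UBA3 in the RNA-seq was at 0.00032 by limma.

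Leaving out 1 replicate, the sign of values near 0 also turned. DCUN1D1 ranged from -0.081 to 0.27 in Hep3B, from -0.24 to 0.44 in SNU-398 and from -0.29 to 0.38 between lines. Between lines SENP8 ranged from -0.079 to 0.095, UBA3 from -0.044 to 0.27 and UBE2M from -0.073 to 0.057. In the RNA-seq NAE1 ranged from -0.079 to 0.074, DCUN1D1 from -0.045 to 0.12, RNF7 from -0.041 to 0.039, UBA3 from -0.11 to 0.041, RBX1 from -0.046 to 0.090, NEDD8 from -0.14 to 0.012 and SENP8 from -0.18 to 0.26. Of 446 alternatives for single genes, 370 kept direction and side of the threshold. NormZ was below 0 in 88 to 95 of 120 values over all alternatives. However, 411 of 970 single scores moved by more than the spread between libraries, with up to 15 changes of sign under 1 alternative. These 411 include scores from 1 library, which differ in part because fewer observations are summed.

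Replicate numbers did not pair the libraries (correlation of deviations -0.02 to 0.03 in Hep3B, -0.01 to 0.09 in SNU-398, and 0.05, 0.22 and -0.0027 in the RNA-seq). With the replicate block, 7 genes and 16 guides were called in Hep3B, 5 genes and 10 guides in SNU-398, 4 genes between lines and 0 in the RNA-seq. Guides with few counts in T0 limit what can be detected.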
